A study of Mus musculus with 20 samples.

Results

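This report compares what iron regulatory protein 2 (IRP2) recovered from 3 tissues of iron-poor mice, the duodenum, the liver and the spleen, and asks which mRNAs were recovered to a different extent in them. The members are the 12 arrays whose titles name these tissues, of 20 arrays in the series, with 4 arrays per tissue: an IRP2 reaction and a control reaction in each of 2 numbered replicates. RNA from the tissues of 4 C57BL6/J mice was pooled per tissue. After weaning, the mice were kept for 21 days on food holding under 10 mg of iron per kg, and their sex is given as mixed. Every group shares that strain and diet, so no iron-replete counterpart of these tissues enters the comparison. In an IRP2 reaction, 50 µg of pooled RNA met recombinant IRP2 with a His tag, made in E. coli, and an antibody against the tag. The control reaction left out the protein, and about 120 ng of the recovered RNA was amplified for an Affymetrix mouse genome array. The protein was therefore added to purified RNA, and the values do not measure binding inside cells. Nothing in the labels says that the replicates came from separate animals, so the p-values measure the spread between these reactions, which may be technical.

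IRP2 and its relative IRP1 are RNA-binding proteins that recognise iron-responsive elements (IREs), short stem-loops in untranslated regions. When cells lack iron, binding to an IRE near the start of an mRNA blocks its translation, as for the ferritins that store iron, and binding in the last part of an mRNA protects it from decay, as for the transferrin receptor that takes iron up. The duodenum absorbs dietary iron, the liver stores it, and the spleen recycles it from red cells and, in mice, also makes red cells.

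The measure throughout is a log2 ratio, the probe set value of the IRP2 array minus that of the control array of the same tissue and replicate number. A ratio of 1 means that the IRP2 reaction held double the signal of its control. A probe set is a group of array probes for a stretch of a transcript, and a gene can have several. Of 45037 probe sets, 18159 (40.3%) had control values at or above the array median in all 3 tissues and were tested, 15813 of them with 1 gene symbol, for 10417 genes. A moderated F test in limma asked whether the 3 tissue ratios were equal, and a call is a Benjamini-Hochberg adjusted p under 0.05 over all 18159.

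The mean level of each tissue's marker list was highest on the arrays that name that tissue. Of the markers fixed for each tissue, 12 of 13 duodenal epithelium genes lay above the array median on every duodenum array, 14 of 14 liver genes on every liver array, and 10 of 10 B and T cell genes on every spleen array. On the other tissues' arrays these counts were 5 to 12, 5 to 10 and 4 to 7. Cd8a, Cd4 and Cd3e had lower control means in the spleen (8.64, 7.66 and 7.37) than in the duodenum (11.3, 8.73 and 7.72) and liver (11.2, 8.63 and 7.60). The other B and T cell genes were highest in the spleen. The levels of other tissues' markers differed between replicates. The mean log2 level of the liver markers on spleen arrays was 4.61 and 4.72 in replicate 1 and 6.35 and 6.40 in replicate 2. Duodenal markers on liver arrays stood at 7.37 and 7.55 in replicate 1 and 8.53 and 8.56 in replicate 2. In each case the IRP2 array and its control had like levels. Fabp1 and Apoa4, of the duodenal list, had high control means in both the duodenum (13.5 and 13.1) and the liver (14.0 and 11.9). The part of other tissues' RNA in these levels and in the results was not tested. Spleen arrays had medians of 5.38 to 5.41 against 5.65 to 5.71 in the other 2 tissues. Among these 12 arrays, a separate normalization of the spleen arrays cannot be told apart from the tissue. Brain arrays, outside this comparison, had medians of 5.66 and 5.65 in replicate 1 and of 5.41 and 5.41 in replicate 2. The cause of these shifts in the median was not tested. Fewer cells of a type and less RNA per cell cannot be told apart in such RNA.

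Replicates of a tissue mostly resembled each other more than different tissues did. Across the 18159 probe sets, which are not independent replicates, the Pearson correlation was 0.442 between the liver replicates, 0.400 between the spleen replicates and 0.360 between the duodenum replicates. Between tissues it ran from 0.0873, for duodenum replicate 2 and liver replicate 1, to 0.431, for duodenum replicate 1 and spleen replicate 1. Of the 12 pairs between tissues, 9 lay below every pair within a tissue, and the other 3 stood at 0.365, 0.425 and 0.431.

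**Figure D1:**
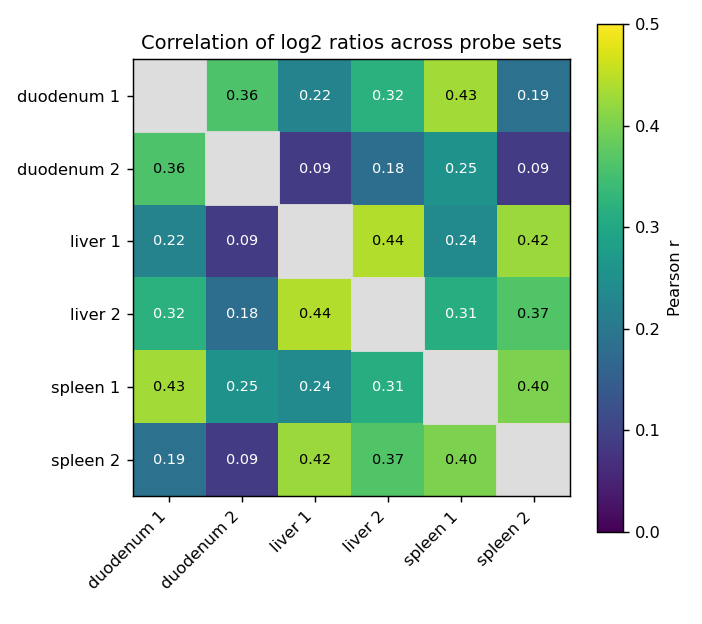
Pearson correlation of the log2 ratios (IRP2 over control) across 18159 probe sets for each pair of the 6 ratios, named by tissue and replicate number. Cells give the correlation, and the diagonal is left grey. The correlations within a tissue run from 0.360 to 0.442, and 3 of the 12 between tissues (0.365, 0.425 and 0.431) lie in that range.

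Most of what IRP2 recovered was not called as different among tissues, as was true of most probe sets tested. On the mean over the 3 tissues, 753 probe sets (4.15%) were called, 568 (3.13%) higher in the IRP2 reaction and 185 (1.02%) lower. The F test called 34 probe sets (0.187%), 28 of them with 1 symbol, for 28 genes. At an unadjusted p under 0.05 it picked 2478. Of the 568 recovered probe sets, 551 were not called in the F test and 17 were. The recovered ones were thus 3.13% of those tested and 17 of the 34 called. The absence of a call does not show equal ratios. Of the 34, 15 were called on neither side of the mean. In 10 of the 34 all 6 ratios lay above 0, as they did in 4.06% of all probe sets tested. The 34 had their highest ratio in the spleen in 16 cases, in the liver in 10 and in the duodenum in 8. The median range between the highest and lowest tissue mean was 1.06 log2 units in the 34 and 0.26 over all probe sets tested, a contrast that the F test itself selects for. In 16 of the 34, the tissue with the highest ratio had the lowest control level, and in 9 it had the highest. Neither these counts nor the split by tissue were taken over all probe sets tested. The control value is itself subtracted in the ratio, so nothing is read from them.

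The count of 34 depends on the pairing and on the scaling of the ratios, and the probe sets called also depend on the filter. With no filter on dim probe sets, 45037 were tested and 25 called, 7 of them among the 34. With every control array 1 log2 unit above its median, 10358 were tested and 36 called, 14 of them among the 34. Without the replicate block, that is with control and IRP2 arrays of a tissue treated as unpaired, 0 were called in limma's F test, with 230 at an unadjusted p under 0.05. Centring each ratio on its median left 4 calls, for Alas2, Cxcl16, Ino80d and Fxyd5, and joint quantile normalization of the 12 arrays left only Alas2. Leaving out duodenum replicate 1 raised the count to 197 and leaving out liver replicate 2 to 61, and leaving out spleen replicate 2 lowered it to 18. Leaving out spleen replicate 1 lowered the count on the mean to 433. Alas2, Tfrc, Cxcl16, Ino80d, Fxyd5, Lnx1 and Max kept their F test call whichever replicate was left out. Each of the other 21 genes lost it without at least 1 replicate. Those 21 and Max also lost it with no filter on dim probe sets. Dhx32 and Snrpd3 lost it without duodenum replicate 2, Ttn and Mefv without liver replicate 1, Patj without liver replicate 2, Cpb1 and Lsm12 without spleen replicate 2, and ND5, Prss2 and Htra3 without either spleen replicate.

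In each tissue alone, 434 probe sets (2.39%) were called higher in the IRP2 reaction in the duodenum, 195 (1.07%) in the liver and 250 (1.38%) in the spleen. Both the duodenum and the liver called 124 of them, which is 28.6% of the duodenum's list and 63.6% of the liver's. Duodenum and spleen shared 125 (28.8% and 50.0%), and liver and spleen shared 107 (54.9% and 42.8%). In all 3 tissues, 95 were called higher, and 452 in 1 tissue. A call in 1 tissue is not a difference between tissues, which the F test addresses.

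The probe sets with the highest mean ratio are described here by tissue. At least 2-fold higher on the mean and called were 49 probe sets, and 48 of them were called in each of the 3 tissues, Alas2 in the duodenum being the exception. The choice on the mean of the same 6 ratios largely builds in these calls, so they are given as a description. Their median ratio was 1.46 in the duodenum, 1.24 in the liver and 1.40 in the spleen. The tissue means of 25 of the 49 lay within 0.5 log2 units of each other and those of 7 differed by more than 1. The F test called 5 of the 49 (10.2%, against 0.187% of all tested), for Tfrc, Cxcl16, Alas2, Ino80d and a probe set whose annotation lists several genes.

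Among the mRNAs with a known IRE, Alas2 in the duodenum departed most from recovery in all 3 tissues. Of 8 IRE genes fixed as a list, 6 were on the array under 1 symbol and all 6 were tested. On each gene's brightest probe set, 6 of 6 were called higher on the mean, against 3.13% of all probe sets tested, and 2 of 6, Alas2 and Tfrc, in the F test, against 0.187%. By tissue, 4 of 6 were called higher in the duodenum, 6 of 6 in the liver and 5 of 6 in the spleen, against 2.39%, 1.07% and 1.38% of all. The genes not called were Alas2 and Slc40a1 in the duodenum and Slc40a1 in the spleen, the last on its brighter probe set 1417061_at. The list's median ratio was 0.75 in the duodenum, 1.43 in the liver and 1.29 in the spleen, against 0.06, -0.06 and -0.03 over all probe sets tested.

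Alas2 encodes the erythroid 5-aminolevulinate synthase, which starts heme synthesis in developing red cells, and carries an IRE near the start of its mRNA. Its log2 ratios were -0.02 and 0.32 in the duodenum, 2.23 and 2.04 in the liver, and 2.20 and 1.94 in the spleen (probe set 1451675_a_at). Both duodenum ratios were far below all 4 others, which overlapped each other. The F test gave an adjusted p of 1.07e-06 in limma, the smallest of all probe sets tested. The duodenum lay 1.98 ± 0.18 (SE) log2 units below the liver and 1.92 ± 0.18 below the spleen, and the liver minus spleen difference of 0.06 had a 95% interval from -0.31 to 0.43.

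The control level of Alas2 did not follow the ratio. It averaged 6.96 in the duodenum, 7.49 in the liver and 11.3 in the spleen, that is 1.28, 1.82 and 5.92 above the array medians. The liver therefore shared a high ratio with the spleen while its control level was close to that of the duodenum. As a list, erythroid markers followed the control level and not the ratio: 7 of 8 lay above the median on every spleen array and 3 of 8 on every duodenum and liver array. Their summed linear level was 306 to 351 in the duodenum, 354 to 422 in the liver and 8838 to 11114 in the spleen. By control means in the duodenum and liver, Epor, Ermap and Klf1 lay above the array medians, and Rhag, Gata1, Slc4a1, Hbb-b2 and Hba-a1 below. Klf1 (5.91 and 6.60) and Hbb-b2 (3.33 and 4.36) rose most from duodenum to liver. Ermap (6.35 and 6.23) and Rhag (3.01 and 2.99) were slightly lower in the liver. Hba-a1 was lower in the spleen, at 3.51, than in the duodenum and liver, at 4.93 and 4.94.

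Tfrc encodes the transferrin receptor, and its 3 probe sets did not order the tissues alike. On the brightest, 1452661_at, the ratios were 2.19 and 1.71 in the duodenum, 2.94 and 2.63 in the liver, and 1.51 and 1.41 in the spleen. The 3 tissues did not overlap, with the liver highest and the spleen lowest (F test adjusted p = 0.00391 in limma; liver minus spleen 1.32 ± 0.19 SE, adjusted p = 0.00206). The control values, from 10.5 on a liver array to 12.5 on a spleen array, ran in the opposite order to the ratios, while the IRP2 values lay between 13.5 and 14.0 on all 6 arrays. The highest probe set on these 12 arrays lay between 14.77 and 14.97, and a part of compression near it was not tested.

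On 1422966_a_at, whose control levels of 5.99 to 6.22 were alike, the order was reversed. The ratios there were 3.15 and 4.07 in the duodenum, 2.05 and 3.31 in the liver, and 4.07 and 4.10 in the spleen. The liver minus spleen difference was -1.40 ± 0.28 (SE), with an adjusted p of 0.058, and the F test did not call it (adjusted p = 0.0795, limma). The dim probe set 1422967_a_at, untested, also had its lowest ratios in the liver, 0.22 and 1.36, against 1.11 and 3.52 in the duodenum and 4.35 and 3.09 in the spleen. The tissue order for Tfrc therefore depends on the probe set, while each tested one was high in all 3 tissues.

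The iron transporters had ratios above 1 in all 3 tissues on 1 probe set each, and the F test called neither. Slc11a2 (DMT1), which carries iron into cells, had ratios of 1.92 and 1.66 in the duodenum, 2.02 and 2.22 in the liver, and 1.39 and 1.40 in the spleen on 1452078_a_at (F test adjusted p = 0.16, limma). The liver minus spleen difference was 0.73, with a 95% interval from 0.37 to 1.08 before adjustment over probe sets. The gene's probe sets differed more than its tissues did. On 1426441_at the ratios ran from 0.57 to 1.06, on 1417584_at from -0.50 to 0.11, and on the dim 1441709_at from 0.09 to 0.55.

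Slc40a1 (ferroportin) is the exporter through which iron leaves cells. On 1448566_at its ratios were 1.68 and 1.63 in the duodenum, 1.79 and 2.03 in the liver, and 2.20 and 2.18 in the spleen, which places the spleen highest and the duodenum lowest without overlap (F test adjusted p = 0.288, limma). On 1417061_at they were 0.33 and 0.05, 0.74 and 0.75, and 0.24 and 0.28, with the liver highest (adjusted p = 0.242, limma). The second probe set was brighter in every tissue and less enriched in every tissue.

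Fth1, the heavy chain of ferritin, had ratios of 0.35 to 1.23 over its probe sets, with control means between 12.8 and 13.6. On 1448771_a_at the ratios were 0.83 and 0.35 in the duodenum, 1.23 and 1.13 in the liver, and 1.13 and 1.02 in the spleen. On 1427021_s_at they were 0.75 and 0.84, 0.67 and 0.74, and 1.15 and 1.23 in the same order of tissues. The spleen was above the duodenum on both, and the liver sided with a different tissue on each (F test adjusted p = 0.252 and 0.292, limma). Epas1, the gene of an oxygen-regulated transcription factor, had ratios of 0.62 and 0.79 in the duodenum, 0.50 and 0.71 in the liver, and 1.38 and 0.88 in the spleen (1435436_at, adjusted p = 0.303, limma). Its dim probe set 1449888_at ran from 0.84 to 1.31 with all tissues overlapping.

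**Figure D2:**
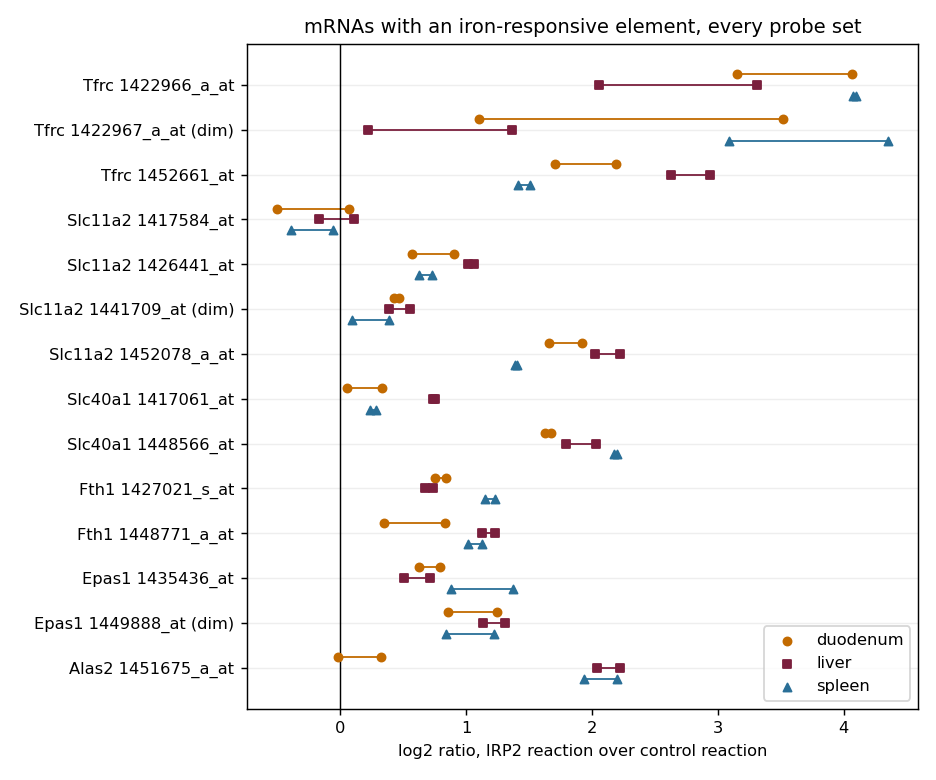
Log2 ratio of the IRP2 over the control reaction (horizontal axis) for every probe set of the 6 IRE genes, with 2 ratios per tissue joined by a line; "dim" marks probe sets left untested because a control lay below the array median. Alas2 stands near 0 in the duodenum and near 2 in the other tissues, and the Tfrc probe sets order the tissues differently.

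Probe sets annotated to several genes carried strong ratios too and are given by identifier only. On 1422302_s_at the ratios were 3.23 and 2.78 in the duodenum, 2.21 and 2.38 in the liver, and 1.58 and 1.70 in the spleen, with control means that rose in the opposite order (F test adjusted p = 0.00242, limma). On 1422301_at they were 0.49 and 0.49, 0.94 and 0.94, and 1.61 and 1.36, with the spleen highest (adjusted p = 0.0226, limma). The 2 probe sets thus order the tissues in opposite ways.

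In the spleen, Cxcl16, Ino80d and Fxyd5 had the highest ratios of the 3 tissues. Cxcl16 encodes a membrane-bound chemokine. On 1418718_at its ratios were 1.98 and 1.98 in the duodenum, 1.31 and 1.14 in the liver, and 2.70 and 2.98 in the spleen, so the tissues did not overlap. Its control levels were alike, 7.59, 7.34 and 7.39. Liver minus spleen was -1.61 ± 0.17 (SE; adjusted p = 5.08e-05), and the F test adjusted p was 1.36e-04 in limma. On its other probe set, 1449195_s_at, the ratios were 3.11 and 3.35, 2.23 and 2.76, and 3.36 and 3.37, again lowest in the liver, and the F test did not call it (adjusted p = 0.0783, limma).

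Ino80d encodes part of the INO80 complex, which moves nucleosomes. On 1439180_at its ratios were 0.67 and 0.65 in the duodenum, 1.26 and 1.27 in the liver, and 2.24 and 2.10 in the spleen. The 3 tissues stepped apart without overlap, and the duodenum lay 1.51 ± 0.17 (SE) below the spleen (F test adjusted p = 1.56e-04, limma). The control level ran the other way, 6.60, 6.25 and 5.53, and the IRP2 values lay between 7.14 and 7.70. The spleen control was 0.14 above its array median, close to the limit for testing. The gene's brighter probe set 1434841_at had ratios from -0.07 to 0.40 and was not called on the mean (adjusted p = 0.582, limma).

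Fxyd5 encodes a small membrane protein that regulates the sodium pump. Its ratios were 0.92 and 0.84 in the duodenum, 0.47 and 0.06 in the liver, and 1.86 and 1.64 in the spleen (1418296_at). Both spleen ratios exceeded all others, and the spleen control, 10.2, was well above the 6.16 and 6.41 of the duodenum and liver (F test adjusted p = 5.65e-04, limma). Liver minus spleen was -1.48 ± 0.18 (SE; adjusted p = 2.32e-04).

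**Figure D3:**
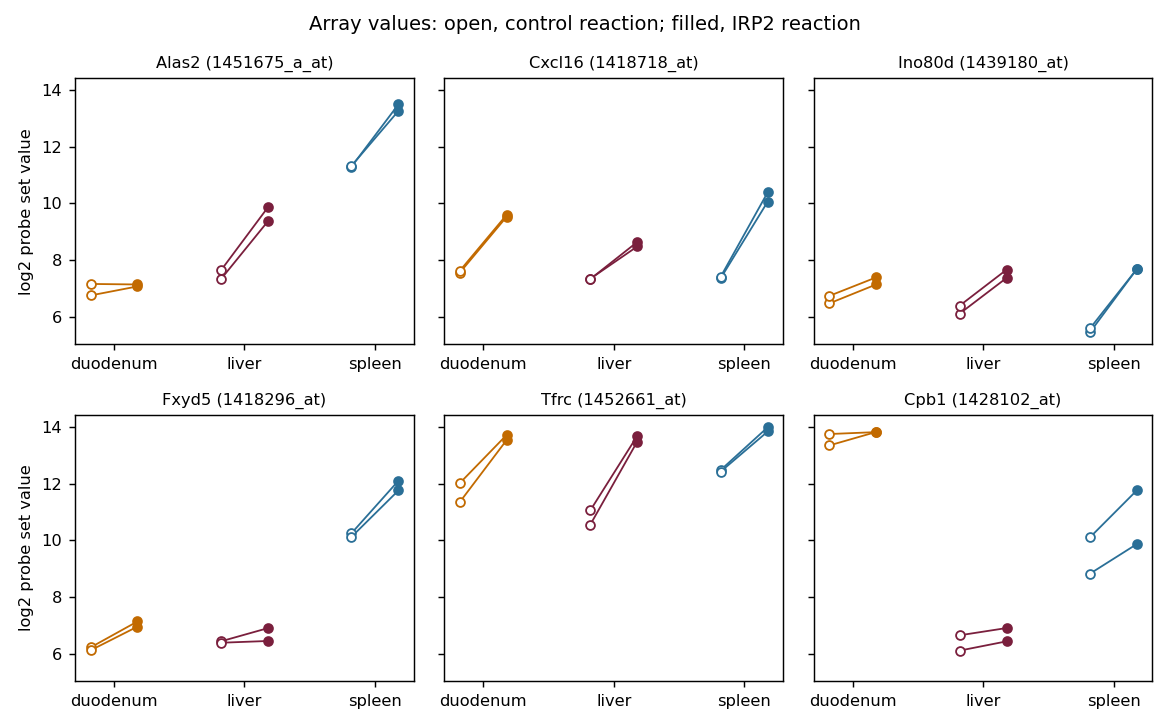
Log2 probe set values of 6 genes on each of the 12 arrays; lines join the control (open) and IRP2 (filled) arrays of 1 replicate. The Tfrc IRP2 values lie between 13.5 and 14.0 in every tissue, the Cxcl16 controls lie close together, and Alas2 rises in the liver and spleen and stays near its control in the duodenum.

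The genes of the digestive enzymes carboxypeptidase B (Cpb1) and anionic trypsin (Prss2) also stood highest in the spleen. Cpb1 had ratios of 0.48 and 0.07 in the duodenum, 0.33 and 0.26 in the liver, and 1.05 and 1.66 in the spleen (F test adjusted p = 0.012, limma), with control means of 13.5, 6.37 and 9.46. On 1417682_a_at, Prss2 had ratios of -0.09 and -0.63, 0.00 and 0.05, and 0.85 and 0.69 (adjusted p = 0.012, limma). The other tested Prss2 probe sets did not follow: on 1433573_x_at the spleen had 0.29 and 0.04, and on 1435507_x_at 0.00 and -0.11.

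All 8 pancreas acinar markers lay above the median on every array. Their summed linear levels were 50251 to 60235 in the duodenum, 3186 to 3401 in the liver and 6931 to 12194 in the spleen. In the liver, Cpa1, Cel and Cela3b had control means of 5.72, 5.84 and 5.91, close to the control array medians of 5.68 and 5.66. The highest liver control mean of the 8 was that of Prss2, 11.1, while its other tested probe sets stood at 6.48 and 6.35. The same Prss2 probe set had control means of 9.72 in the bone marrow and 9.35 in the brain. The 6 markers other than Cpb1 and Prss2 had spleen ratios between -0.13 and -0.02. The part of pancreatic RNA in the Cpb1 and Prss2 ratios was not tested.

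Further genes highest in the spleen were less abundant or less clearly recovered. ND5, a mitochondrially encoded subunit of respiratory complex I, had ratios of -0.12 and -0.07 in the duodenum, -0.45 and -0.10 in the liver, and 0.89 and 0.63 in the spleen. Lsm12 had 0.00 and 0.30, 0.77 and 0.64, and 1.05 and 1.47, while its other tested probe set, 1427998_at, stayed between 0.08 and 0.49. The unnamed transcripts 2510002D24Rik and A530088E08Rik had spleen ratios of 1.34 and 1.14, and of 0.76 and 1.09. In each of these 4 genes both spleen ratios exceeded all 4 others, against a background of 11.5% of probe sets with both spleen ratios above both of the duodenum and 20% above both of the liver.

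In the duodenum, Lnx1, Dhx32, Max and 4833420G17Rik had the highest ratios. Lnx1, which encodes an E3 ubiquitin ligase, had ratios of 0.94 and 0.84 in the duodenum, -0.20 and -0.04 in the liver, and -0.10 and -0.31 in the spleen (1455825_s_at; F test adjusted p = 0.00391, limma). Only the duodenum ratios were positive, and the duodenum control was also the brightest. Dhx32, of the DEAH-box helicase family, had 1.40 and 2.69 in the duodenum, 0.39 and 0.69 in the liver, and 0.13 and 0.67 in the spleen on 1438013_x_at. Its replicates in the duodenum differed by more than 1 log2 unit, and its other probe set, 1420427_a_at, ran from -0.06 to 0.56.

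Max, the partner of the transcription factor Myc, had ratios of 1.12 and 0.52 in the duodenum, -0.37 and -0.41 in the liver, and -0.01 and 0.01 in the spleen (F test adjusted p = 0.0112, limma). Its liver control was 0.012 above the array median, at the limit for testing, and its mean liver IRP2 value, 5.29, lay below the array medians. The call was lost with no filter on dim probe sets. The unnamed transcript 4833420G17Rik had 0.60 and 1.12, -0.18 and 0.02, and -0.12 and -0.46 on 1419636_at. On these probe sets the duodenum alone was high. The other tested probe sets of 4833420G17Rik had duodenum ratios of -0.22 and 0.09 on 1419635_at and of 0.23 and 0.50 on 1419637_s_at, and the F test called neither (adjusted p = 0.555 and 0.277, limma). A higher duodenum ratio is common in these data: the median difference over all probe sets was 0.13 against the liver and 0.10 against the spleen, and both duodenum ratios exceeded both liver ratios in 39.8% of probe sets and both spleen ratios in 32.2%.

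In the liver, Ttn, Patj, Afp and Mefv had the highest ratios among genes with little recovery elsewhere. Patj, a scaffold protein of tight junctions, had ratios of 0.07 and 0.01 in the duodenum, 0.77 and 1.18 in the liver, and -0.05 and 0.04 in the spleen on 1418984_at, while its other tested probe set had liver ratios of -0.19 and -0.04. Ttn, which encodes the giant muscle protein titin, had 0.87 and 0.64 in the liver and values between -0.36 and -0.07 elsewhere. Afp, the fetal plasma protein alpha-fetoprotein, had 0.86 and 0.41 in the liver on 1436880_at, and the other tested probe set, 1416645_a_at, had -0.46 and -0.10. Mefv, which encodes pyrin, had 1.10 and 0.56 in the liver. Each was called in the F test, with adjusted p between 0.0112 and 0.0256 in limma. Their liver controls lay 0.41 (Ttn), 0.62 (Patj), 0.36 (Afp) and 0.93 (Mefv) above the array median. All of them lost the call with no filter on dim probe sets.

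Snrpd3, a core protein of the spliceosome's small nuclear ribonucleoproteins, differed through a low duodenum. On 1422885_at its ratios were -0.75 and -0.84 in the duodenum, 0.15 and 0.29 in the liver, and -0.11 and 0.05 in the spleen (F test adjusted p = 0.012, limma). Its other tested probe sets had duodenum ratios of 0.22 and 0.23 and of 0.03 and 0.01, so the low value belonged to that probe set.

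**Figure D4:**
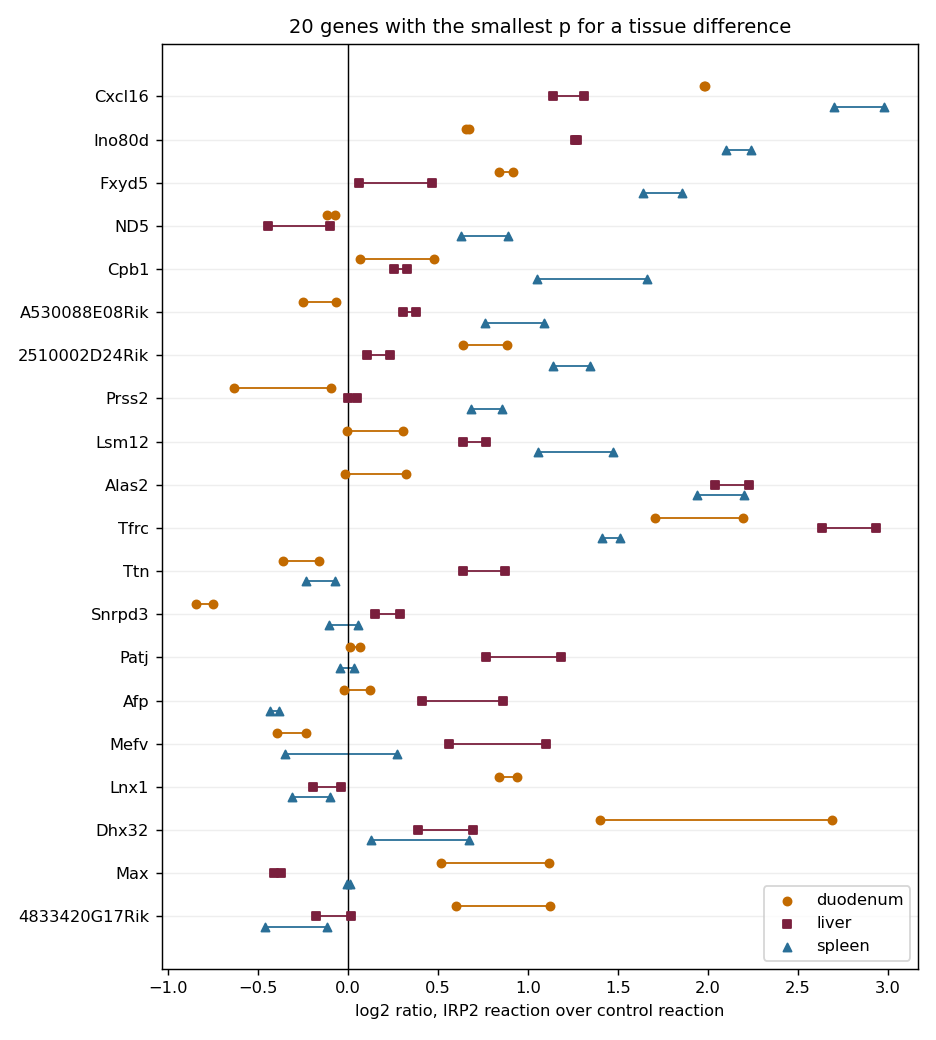
Log2 ratio of the IRP2 over the control reaction for the 20 genes with the smallest F test p, ordered by the tissue with the highest mean ratio, with 2 ratios per tissue joined by a line. Cxcl16 to Lsm12 are highest in the spleen, Alas2 to Mefv in the liver and Lnx1 to 4833420G17Rik in the duodenum.

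Taken pair by pair, few probe sets passed. Between duodenum and liver 10 were called (0.0551%), 4 higher in the duodenum (0.022%; Dhx32, Max, Lnx1 and Plcd1) and 6 lower (0.033%), among them Alas2, Mefv, Ttn, Snrpd3 and Patj. S100a10 had a difference of 1.09 on 1439348_at, larger than those of Lnx1 and Plcd1, and was not called (adjusted p = 0.0748, limma). Its other probe sets, 1416762_at and 1456642_x_at, had ratios between -0.30 and 0.16. Between duodenum and spleen 14 were called (0.0771%). Of these, 5 (0.0275%) were higher in the duodenum, with Dhx32 at 1.64 and Ppp2r5c, a regulatory subunit of protein phosphatase 2A, at 1.02 on 1425542_a_at. The F test called none of the 5 other tested Ppp2r5c probe sets (adjusted p from 0.227 to 0.516, limma), and on 1455520_at the duodenum was lowest, at -0.74 and -0.78. The 9 lower ones (0.0496%) included Alas2, Ino80d, Prss2, Lsm12, A530088E08Rik and Cpb1. Clta, a clathrin light chain, had a difference of 0.85 on 1434540_a_at and was not called (adjusted p = 0.0868, limma).

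Between liver and spleen 16 were called (0.0881%). Tfrc on its brightest probe set led the 6 (0.033%) that were higher in the liver, followed by Afp at 1.05, Htra3 at 1.02, Patj at 0.98 and Susd2 at 0.97. Htra3 encodes a secreted serine protease, and its spleen ratios of -1.05 and -0.78 on 1419292_at were the low ones. On its other tested probe set, 1431762_at, the spleen had -0.41 and -0.23 and the liver was lower on the mean, at -0.30 and -0.63 (F test adjusted p = 0.355, limma). The 10 lower in the liver (0.0551%) included Cxcl16, Fxyd5, 2510002D24Rik, Cpb1 and ND5. The split between duodenum and liver moved with the scaling: centring on the median left 0 higher and 1 lower, and it was 10 higher and 5 lower with no filter on dim probe sets. Leaving out duodenum replicate 1 raised the counts of both duodenum comparisons, to 179 and 175, and leaving out duodenum replicate 2 lowered duodenum against liver to 5. Without liver replicate 2 that count was 26, and duodenum against spleen was 24 without either liver replicate and 5 without spleen replicate 2. Liver against spleen was 25 without either duodenum replicate, 7 without spleen replicate 1 and 4 without spleen replicate 2. Comparisons that share a tissue share its arrays, so their lists are not independent.

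**Figure D5:**
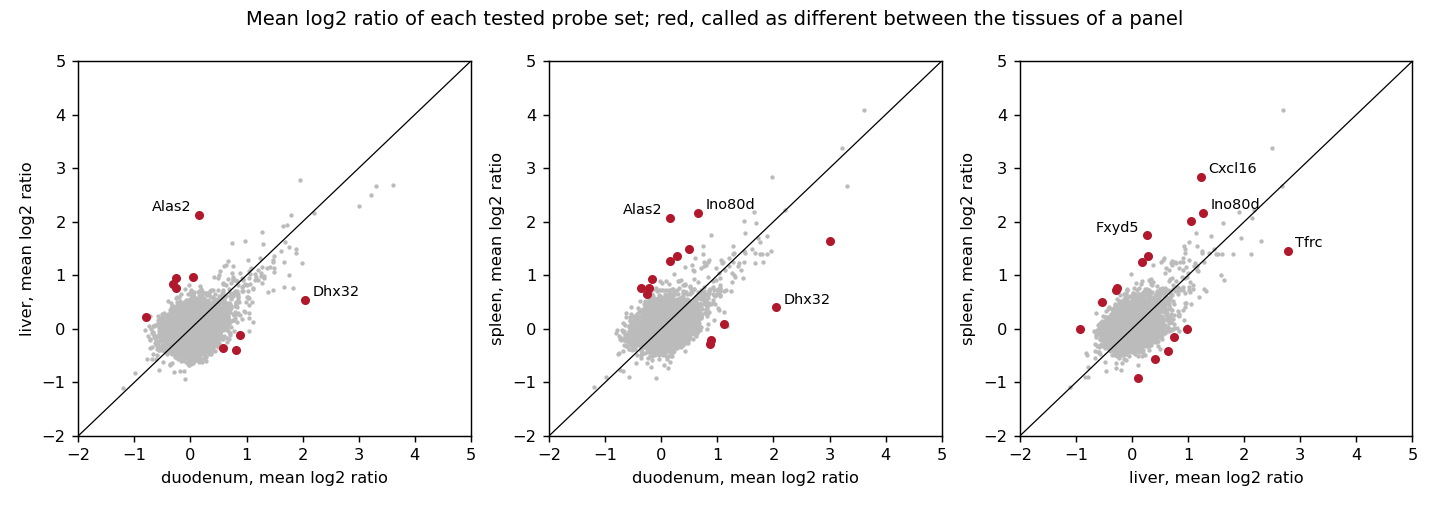
Mean log2 ratio (2 replicates) of each of the 18159 tested probe sets in a pair of tissues per panel; the diagonal marks equal ratios. Red points are called as different between those tissues by limma (10, 14 and 16 probe sets from left to right), and 6 of the genes described in the text are named where they were called.

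Several strongly recovered mRNAs had close ratios in the 3 tissues. Nt5c, which encodes a cytosolic deoxyribonucleotidase, had ratios of 2.23 and 2.17 in the duodenum, 2.11 and 2.23 in the liver, and 2.36 and 2.08 in the spleen. All tissues overlapped (F test adjusted p = 0.983, limma), and the 95% intervals of the differences ran from -0.32 to 0.38 for duodenum minus liver, -0.37 to 0.34 for duodenum minus spleen and -0.40 to 0.31 for liver minus spleen. Taf10, a subunit of the general transcription factor TFIID, had ratios from 1.37 to 1.73, with intervals that stayed between -0.39 and 0.53. Fam98b, a component of the tRNA ligase complex, had ratios from 1.52 to 2.29, with wider intervals between -0.64 and 0.67.

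Hmces, which shields abasic sites in DNA, had ratios of 1.66 and 2.11 in the duodenum, 1.34 and 1.49 in the liver, and 1.78 and 1.69 in the spleen. The liver was lowest without overlap and the F test did not call it (adjusted p = 0.351, limma). Lrpap1, a chaperone of lipoprotein receptors, came nearer: its ratios on 1426697_a_at were 1.26 and 1.70, 0.93 and 1.18, and 2.14 and 1.87, with liver minus spleen at -0.95 ± 0.19 (SE; adjusted p = 0.0407) and an F test adjusted p of 0.071 in limma. Its other tested probe sets, 1426696_at and 1436609_a_at, had mean ratios of 0.07 and 0.06 and were not called on the mean (adjusted p = 0.687 and 0.757, limma). The dim Lrpap1 probe set 1452148_at, untested, had ratios from 2.26 to 2.68. Cct7, a subunit of the cytosolic chaperonin, had its highest ratios in the liver, 1.94 and 1.67, against 1.22 to 1.57 elsewhere on 1415817_s_at (adjusted p = 0.293, limma).

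The genes whose tissue means differed least while called on the mean were only weakly recovered. Vars2, Usp32, Usp40, Atxn7l3b and Man2b1 had mean ratios of 0.31, 0.26, 0.30, 0.33 and 0.28, and their tissue means spanned 0.01 to 0.04. Each value is from 1 probe set, and no other tested probe set of these 5 genes was called on the mean. The replicates of a tissue spread wider than that, as in Usp40, whose spleen ratios were 0.04 and 0.56. On the depleted side, Marveld1 and Blmh, chosen after their values were seen, had all 6 ratios below 0 (3.47% of all probe sets did), with a lowest value of -1.50 and a highest of -0.81, and from -1.08 to -0.61. These values are from 1439381_x_at and 1438961_s_at, and neither was called in limma's F test (adjusted p = 0.926 and 0.872). The other tested probe sets were not depleted, with mean ratios of 0.01 and -0.02 for Marveld1 (1433538_at and 1436773_x_at) and 0.02 for Blmh (1452101_at).

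Of 20 other mRNAs reported with IRP binding, 12 were tested, 8 were called higher on the mean (3.13% of all probe sets tested were) and 1, Cxcl16, in the F test (0.187% of all), each on its brightest probe set. Their median ratio was 1.67 in the duodenum, 1.00 in the liver and 1.37 in the spleen. That list was partly chosen on these samples, which partly builds in the calls and medians, so they are given as a description. The other 8 genes were left out because a control lay below the array median in at least 1 tissue. Gstm6, Ppp1r1b and, on 1 of its 2 probe sets, Kcnf1 had tissue means further apart than the largest range among tested probe sets, 1.98. Their values are given next with the adjusted p from the fit of all 45037 probe sets without the filter.

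Gstm6, a glutathione S-transferase, had ratios of 2.79 and 2.24 in the duodenum, 2.62 and 2.63 in the liver, and 0.00 and 0.04 in the spleen (F test adjusted p = 6.82e-06, limma without the filter). Its controls lay 0.24 below the array median in the duodenum, 0.82 above it in the liver and 1.22 below it in the spleen, where the IRP2 arrays stayed at 4.19. Ppp1r1b, which encodes the phosphatase inhibitor DARPP-32, had 2.11 and 3.05 in the duodenum, 0.31 and 0.56 in the liver, and -0.07 and -0.03 in the spleen (adjusted p = 8.31e-05, limma without the filter). Its spleen control was 0.58 above the median, so the ratio near 0 there was measured on a signal above the median, and its liver control was 0.37 below.

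Kcnf1, a potassium channel subunit, had ratios of 2.68 and 2.66 in the duodenum, 0.29 and -0.08 in the liver, and 0.70 and 0.94 in the spleen on 1454768_at, with all control means at least 1.96 below the array medians. The gene's other probe set, 1441300_at, also untested, did not follow. Its ratios ran from -0.31 to 0.32, with -0.07 and 0.04 in the duodenum, where its control was 0.54 below the median. Shisa2 had 2.05 and 1.96 in the duodenum, 0.60 and 0.57 in the liver, and 1.78 and 1.89 in the spleen on 1423852_at, and its liver control was 1.35 below the median. In both the low ratio fell in a tissue with a control below the median. A value near the background limits how far a ratio can be read there.

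Egr2 and Hao1 were chosen after their values were seen. Egr2, a zinc finger transcription factor, had ratios of 2.11 and 2.16 in the duodenum, 1.48 and 1.55 in the liver, and 2.13 and 1.98 in the spleen on 1427682_a_at (adjusted p = 0.328, limma without the filter). Hao1, a peroxisomal oxidase of the liver, had 1.54 and 1.46 in the liver, where its controls were 11.4 and 11.6, and -0.33 and 0.39 in the duodenum. In the spleen its replicates parted, at -0.09 and 1.40, with IRP2 values of 3.39 and 5.33. The replicate with the high Hao1 ratio was the one whose arrays held more liver marker signal, 2582 and 2740 summed against 452 and 487, and the part of that signal was not tested.

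No call fell in the gene groups around iron that lack a canonical IRE or in the ribosomal proteins. Of 20 tested genes of iron metabolism without an IRE, 7 of heme synthesis, 11 of iron-sulfur cluster assembly, 16 of the citrate cycle, 18 nuclear-encoded subunits of the respiratory chain, a list that leaves out ND5, and 16 cytosolic ribosomal proteins, limma called 0 on the mean, against 4.15% of all probe sets tested, and 0 in the F test, against 0.187%. At an unadjusted p under 0.05 the mean picked 5 of the 88 (5.68%, against 15.2% of all) and the F test 8 (9.09%, against 13.6%). In so few genes a count of 0 in the F test is near the background share, and nothing is read from it. Their median mean ratios lay between -0.09 and 0.03, near the -0.01 of all probe sets tested. Of 13 tested immediate early genes, 2 were called higher on the mean, Ier2 at 0.48 and the phosphatase gene Dusp1 at 0.37, and 0 in the F test.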

How the data were processed

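Each deposited value is a log2 summary of a probe set after the authors' background correction and normalization, per the labels' protocols and series text; RMA, MAS5 and GCOS are named in the submitters' processing notes, without versions, and which was used stays unknown here. Ratios were taken within replicate number, IRP2 minus control, because each control was run beside its IRP2 reaction, per the labels; same-numbered arrays shared deviations from their group means (r = 0.698 in duodenum, 0.619 in liver and 0.436 in spleen). The 6 ratios entered limma 3.58.1 (R 4.3.3) (3 residual degrees of freedom, prior 19.5), with a moderated F test, pairwise differences, each tissue and their mean, adjusted by Benjamini-Hochberg. AFFX controls (64) and probe sets with a control mean below the array median in any of the 3 tissues were left out. Symbols came from the platform annotation: 34945 probe sets had 1 symbol, 932 several and 9160 none; 34741 had a gene ID in RefSeq. A list counts each gene by its brightest probe set. Named genes were the IRE genes, the 20 of smallest F test p, the 5 highest and lowest per pairwise difference, the 10 highest on the mean, the 5 most even, and up to 4 per list. The members and lists were chosen with earlier results of these data known. In simulated data, 200 of 18159 probe sets were changed. There the F test recovered 96% at a log2 change of 1 and 100% at 2, with 10 false of 206 calls. These rates describe the simulated data only. They give no power or error rate for the calls in the deposited ratios, whose number depended on the pairing and the scaling. The number of arrays limits the precision. Alternatives were other filters, scalings, variance models, no replicate block and leaving out each replicate.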

Additional observations from a re-analysis of the deposited data

Results flagged for a closer look

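For 24 probe sets the tissue ratios differed in limma's F test, and the gap between the highest and lowest tissue mean, in log2 units, is given for each. Every gap belongs to 1 probe set, and the report gives other probe sets of several of these genes that did not follow. Each of these calls was lost without the replicate block. Highest in the spleen were Cxcl16 (1.61 above the liver), Ino80d (1.51 above the duodenum), Fxyd5 (1.48 above the liver), Prss2 (1.13 above the duodenum), Lsm12 (1.11 above the duodenum), A530088E08Rik (1.08 above the duodenum), Cpb1 (1.08 above the duodenum), 2510002D24Rik (1.07 above the liver) and ND5 (1.03 above the liver). Highest in the liver were Alas2 (1.98 above the duodenum), Tfrc (1.32 above the spleen), Mefv (1.15 above the duodenum), Afp (1.05 above the spleen), Ttn (1.02 above the duodenum), Snrpd3 (1.02 above the duodenum), Htra3 (1.02 above the spleen), Patj (0.98 above the spleen) and Susd2 (0.97 above the spleen). Highest in the duodenum were Dhx32 (1.64 above the spleen), Max (1.21 above the liver), 4833420G17Rik (1.15 above the spleen), Lnx1 (1.10 above the spleen), Ppp2r5c (1.02 above the spleen) and Plcd1 (0.95 above the liver).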

How the results depend on the processing

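The paired fit called 34 probe sets in the F test, 10 between duodenum and liver, 14 between duodenum and spleen, 16 between liver and spleen, and 753 on the mean. With no replicate block these counts were 0, 0, 0, 0 and 153, and 230, 439, 346, 211 and 1054 had an unadjusted p below 0.05. Taking the spread from all 5 tissues of the series gave 0, 0, 0, 0 and 188. With ratios centred on their median the first 4 were 4, 1, 8 and 3, and with the 12 arrays quantile normalized together 1, 1, 3 and 0. Between duodenum and liver, a filter of 1 log2 unit above the median gave 21 and a filter on the mean of the 12 arrays 16. Leaving out each replicate in turn gave 18 to 197 in the F test, 5 to 179 between duodenum and liver, 5 to 175 between duodenum and spleen, 4 to 25 between liver and spleen, and 433 to 856 on the mean. A tissue left with 1 ratio was assumed to vary like the others. The highest counts of the first 3 came without duodenum replicate 1 (197, 179 and 175), and the lowest F test count came without spleen replicate 2. A variance prior with an intensity trend gave 34 in the F test. Over 95 gene results and 1287 comparisons with an alternative, 883 kept their side of the threshold, 395 lost the call, 9 gained it and 0 changed direction. The F test call of Alas2 held in 12 of 14 alternatives, and was lost without the replicate block and with the spread from all 5 tissues. The cause of these shifts was not tested. The deposited values carry no signal over background per probe set, so the array median stood in for it.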

Other observations

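The bone marrow and brain arrays used mice aged 8 to 10 weeks that ate iron-normal food, so diet and age cannot be told apart from tissue there, and their ratios are given as values with no test. Alas2, near 0 in the duodenum, had ratios of 2.42 and 2.20 in the brain, where its control was 0.73 above the array median, and of 0.52 and 1.36 in the bone marrow, where it was 5.63 above. Cxcl16 on 1418718_at had 0.11 and 0.91 in the brain and 0.18 and -0.20 in the bone marrow, both below all 6 ratios of the iron-poor tissues. On its other probe set, 1449195_s_at, it had 1.39 and 1.83 in the brain and 2.01 and 1.79 in the bone marrow. Ppp1r1b, high in the duodenum among the iron-poor tissues, had 2.18 and 2.30 in the brain and 0.30 and 0.08 in the bone marrow. Kcnf1 on 1454768_at had 2.93 and 3.32 in the brain, where its control was 2.54 above the median. On 1441300_at, with a brain control 0.24 above the median, it had 0.06 and -0.01. Hao1 had 1.26 and 1.27 in the brain with a control 1.37 below the median.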
